A study of Mus musculus with 24 samples.

Results

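The reactive astrocyte panel is a set of 36 genes, chosen by gene symbol, that are known to be raised in astrocytes after injury or inflammation. It was chosen with earlier results of these data known. All 36 were found among the 32719 genes counted, and 35 of them passed the filter on low counts that left 15599 genes to test. Slc10a6, a sulfated steroid transporter, was the member left untested, with 0 to 10 counts in a library. RNA was sequenced in 24 libraries of mouse primary cortical astrocytes grown from newborn pups homozygous for a floxed insulin receptor gene, 4 libraries in each of 6 groups. The titles of all libraries carry the label DIV14, for days in vitro. IRKO cells received an adenovirus encoding Cre and GFP and IRflox cells the same kind of virus encoding GFP alone, so that genotype and virus go together, and both carried the floxed alleles. After overnight serum starvation, cells of each genotype received insulin or IGF-1, each at 100 nM, or vehicle alone for 6 h. The groups were therefore IRKO insulin, IRKO IGF-1, IRKO vehicle, IRflox insulin, IRflox IGF-1 and IRflox vehicle. The labels do not say whether the replicates came from separate cultures or animals, so p-values measure the spread between these libraries, which may in part be technical.

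Reactive astrocytes are astrocytes that have changed shape, gene expression and function in response to damage. In mouse, the panel is usually divided into pan-reactive genes, A1 genes first described after injection of bacterial lipopolysaccharide, and A2 genes first described after loss of blood supply. Interleukin-6 family cytokines acting through STAT3, inflammatory signals acting through NF-kappa-B and interferons are known inducers of parts of it. Insulin and IGF-1 each bind their own receptor tyrosine kinase with high affinity and the other's with lower affinity, and both receptors feed the PI3K-AKT and RAS-MAPK pathways. The comparison of the ligands in cells with and without Cre asks how far each member's response depends on the ligand and on the insulin receptor.

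The libraries held 15429688 to 19010986 counts in genes. Insr, the targeted gene, had 26.6, 29.6, 29.0 and 30.6 CPM (counts scaled to a common library size) in IRKO insulin cells, 29.0, 29.6, 30.3 and 32.3 in IRKO IGF-1 cells and 39.7, 37.7, 40.5 and 43.7 in IRKO vehicle cells, against 52.6, 47.5, 50.2 and 48.1 in IRflox insulin cells, 47.1, 49.2, 50.9 and 46.7 in IRflox IGF-1 cells and 60.0, 66.9, 58.8 and 60.6 in IRflox vehicle cells. It was lower in IRKO than in IRflox cells under each treatment, with log2 differences of -0.78 (insulin), -0.68 (IGF-1) and -0.61 (vehicle). The counts cover the whole gene and not the floxed part alone, so they do not give the share of cells that recombined. Astrocyte markers were abundant, with group means for Slc1a3 of 1201 to 1563 CPM. The 17 astrocyte markers summed to 8292 to 8655 CPM in IRKO insulin, 7843 to 8220 in IRKO IGF-1 and 8670 to 9623 in IRKO vehicle libraries. They summed to 7934 to 8573 CPM in IRflox insulin, 7456 to 7908 in IRflox IGF-1 and 8741 to 9246 in IRflox vehicle libraries. In both genotypes insulin lay below vehicle and IGF-1 below insulin without overlap. The part of this shift in the panel's values was not tested. The defining genes of mature neurons (Rbfox3), oligodendrocytes (Mog) and endothelium (Cldn5) each averaged at most 0.204 CPM in any group, and Cldn5 was at 0 in 5 of the 6 group means. Other markers of these lineages were present. The 10 oligodendrocyte lineage markers summed to 371 to 377 CPM in IRKO insulin cells, 402 to 434 in IRKO IGF-1 cells and 263 to 282 in IRKO vehicle cells, against 319 to 355 in IRflox insulin cells, 362.7 to 392.4 in IRflox IGF-1 cells and 243 to 266 in IRflox vehicle cells. The 10 neuron markers summed to 122 to 145 CPM in IRKO and 145 to 173 CPM in IRflox libraries, and the 12 fibroblast and mural cell markers to 409 to 482 CPM in IRKO and 419 to 515 CPM in IRflox libraries. Markers of microglia, the brain's resident macrophages, were present, with P2ry12 and Tmem119, which set microglia apart from other macrophages, at 1.38 and 5.34 CPM in IRflox vehicle cells. The 17 microglia markers summed to 1805 to 1876 CPM in IRKO insulin cells, 1797 to 1906 in IRKO IGF-1 cells and 2077 to 2118 in IRKO vehicle cells, against 1530 to 1645 in IRflox insulin cells, 1558 to 1662 in IRflox IGF-1 cells and 1702 to 1814 in IRflox vehicle cells. The summed microglia level was also used as a covariate, an alternative chosen after seeing the data and called the microglia covariate here; 95% of its variance lay between the 6 groups, so it and the treatment or genotype cannot be told apart well. In bulk RNA, fewer cells of a type and less RNA per cell cannot be told apart.

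The panel was strongly expressed in these cultures, also without ligand. Averaged over all libraries, the 35 tested members had a median of 293.5 CPM, against 24.04 CPM over all 15599 genes tested. To compare genes with each other, CPM were divided by the exon length of each gene in kilobases. By this measure the complement component C3 stood first among the 36 in IRflox vehicle cells, with 1249 CPM per kb. The iron-trafficking protein Lcn2 followed with 992 CPM per kb. The chemokines Cxcl10, Ccl2 and Cxcl1 had 882, 870 and 837 CPM per kb, and the interferon-induced GTPase Gbp2 had 794. Vim and Gfap, the intermediate filament genes that define reactive gliosis in histology, ranked 7 and 14 with 788 and 157 CPM per kb. At the low end, the matrix protein Fbln5, Tgm1, the glucocorticoid receptor co-chaperone Fkbp5, Sphk1, Aspg and Slc10a6 had under 2 CPM per kb. H2-D1, H2-T23, Gbp2 and Serpina3n belong to families with near-identical copies, so their counts are uncertain in how reads were assigned among copies.

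**Figure D1:**
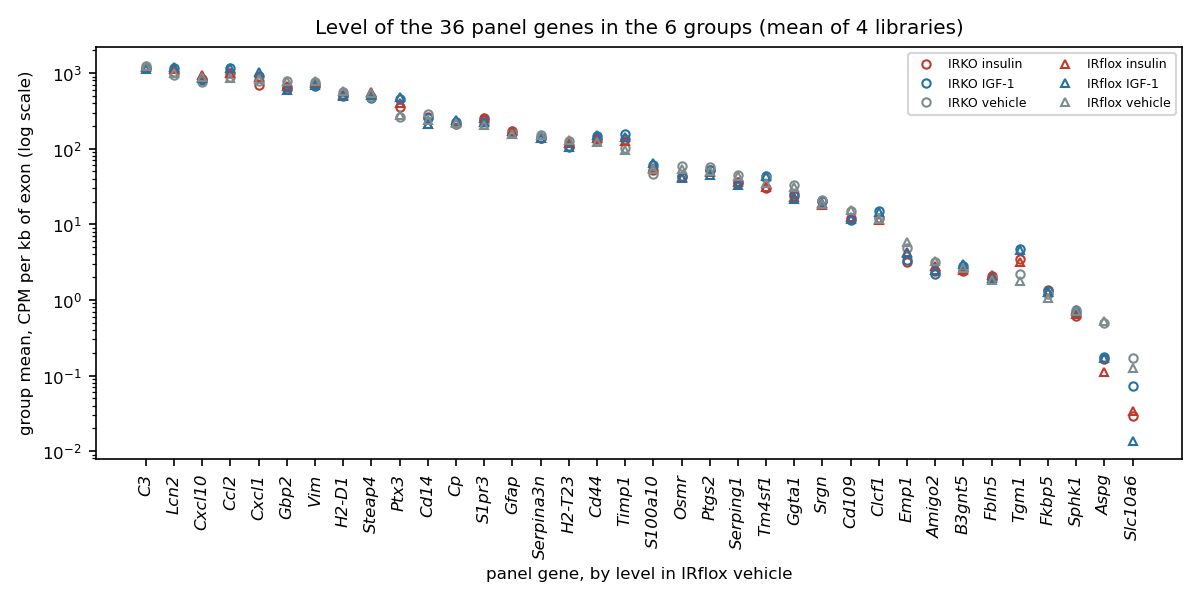
Group mean level of the 36 panel genes in CPM per kb of exon (log axis), ordered by the level in IRflox vehicle cells; colours mark the treatment and symbols the genotype, each point the mean of 4 libraries. The panel runs from C3 at 1249 to Slc10a6 at 0.125 CPM per kb in IRflox vehicle cells, and the groups lie close together for most genes.

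Insulin and IGF-1 at the same dose and time left different levels of part of the panel. In both genotypes, 7 members were lower under insulin than under IGF-1: the cytokine Clcf1, the chemokines Cxcl1 and Ccl2, the pentraxin Ptx3, the membrane protein Tm4sf1, the transglutaminase Tgm1 and S100a10. No member was called higher in both. In IRKO cells 8 of 35 members (22.9%) were called, all lower under insulin, against 2.67% of all genes tested called in this comparison and 1.61% called lower. In IRflox cells 11 of 35 (31.4%) were called, 7 lower and 4 higher under insulin, against 2.59% of all genes tested, 1.1% called lower and 1.49% higher. Called means that edgeR's quasi-likelihood test gave a p below 0.05 after Benjamini-Hochberg adjustment over all 15599 genes. The shares over all genes were not matched for level, and the panel's median level was the higher (293.5 against 24.04 CPM). The median log2 difference between insulin and IGF-1 was 0.00 in IRKO cells and 0.01 in IRflox cells over the panel, and 0.00 in both over all genes tested. Of 11 tested A2 members, 5 were lower in IRKO cells, and 5 lower and 1 higher in IRflox cells. Of 12 pan-reactive members, 1 was lower in IRKO cells and 2 were higher in IRflox cells. Of 3 other inflammatory members, Cxcl1 and Ccl2 were lower in both. Of 9 A1 members, none was called in IRKO cells by edgeR or DESeq2, with 2 at an unadjusted p under 0.05, and 1 was higher in IRflox cells.

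The libraries of the insulin and IGF-1 groups did not overlap for 13 of 35 members in IRKO cells and for 11 in IRflox cells, against 8.89% and 7.8% of all genes tested. With the genotypes averaged, 15 members were called, 5 higher and 10 lower under insulin, against 8.55% of all genes tested called, 4.26% higher and 4.29% lower. The count in IRKO cells fell to 5 without IRKO IGF-1 replicate 1, IRKO insulin replicate 2 or IRKO insulin replicate 4, and to 4 without IRKO insulin replicate 1. In IRflox cells it fell to 6 without IRflox IGF-1 replicate 4 or IRflox insulin replicate 3.

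**Figure D2:**
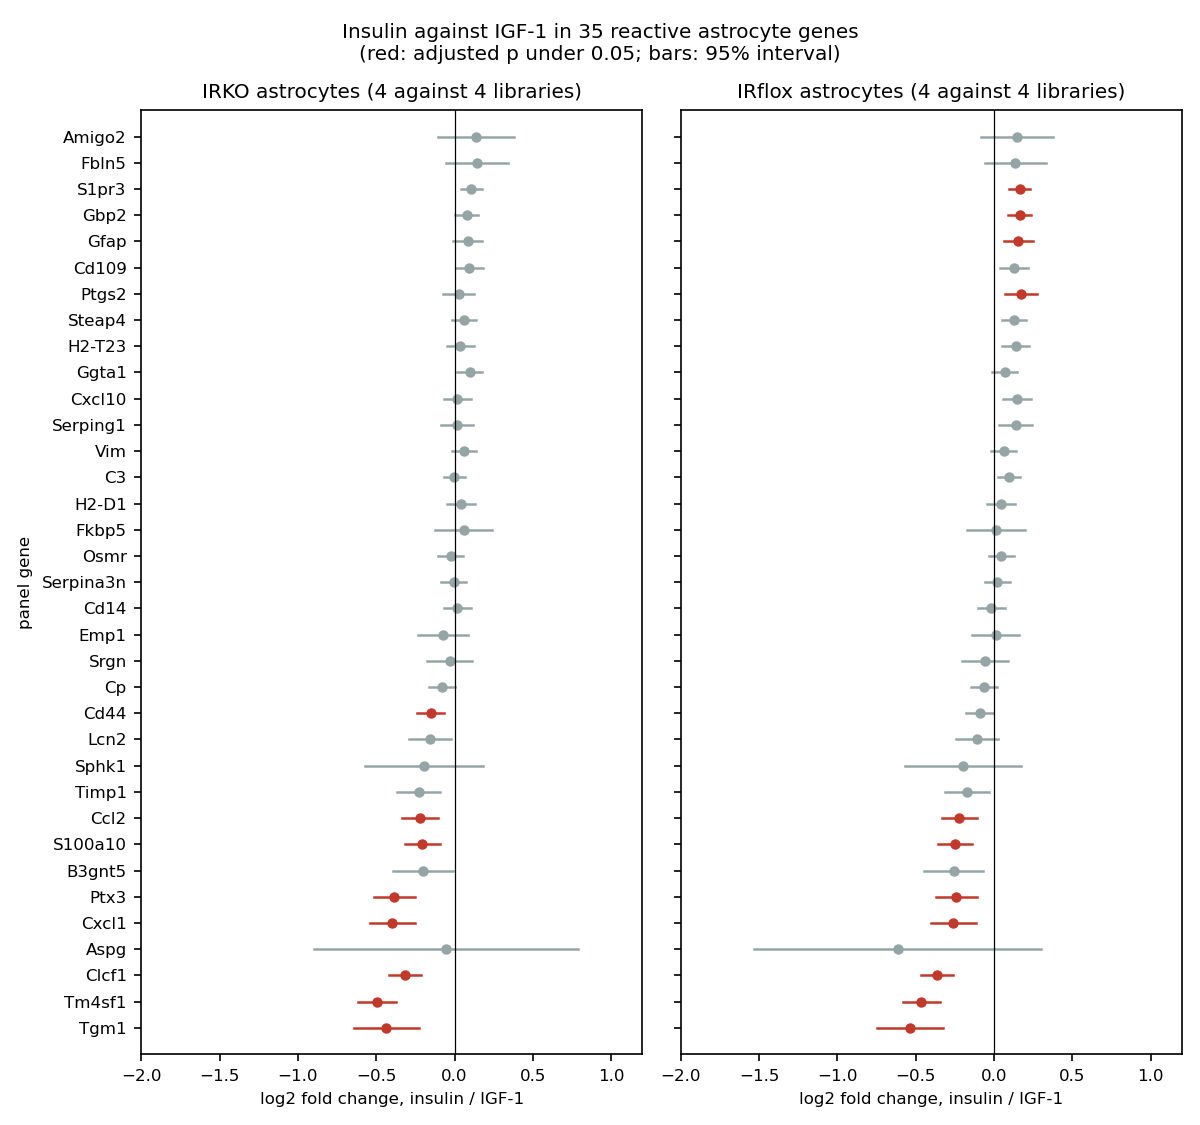
Log2 fold change of insulin over IGF-1 with its 95% interval for the 35 tested panel genes, IRKO cells on the left and IRflox cells on the right (4 against 4 libraries each), ordered by the mean of both genotypes. Red marks the genes with an adjusted p under 0.05, 8 in IRKO cells, all below 0, and 11 in IRflox cells, 7 below and 4 above 0; the intervals of Aspg are wide.

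Clcf1 encodes an interleukin-6 family cytokine that signals through the CNTF receptor. In IRKO cells it had 46.1, 50.4, 46.0 and 43.2 CPM with insulin, 55.8, 58.3, 60.1 and 56.9 CPM with IGF-1 and 48.5, 47.2, 45.7 and 44.7 CPM with vehicle. In IRflox cells it had 42.8, 44.1, 41.6 and 43.8 CPM with insulin, 55.5, 54.6, 56.8 and 55.2 CPM with IGF-1 and 45.2, 48.6, 41.0 and 44.1 CPM with vehicle. All 4 insulin libraries lay below all 4 IGF-1 libraries in both genotypes, and they overlapped the vehicle libraries. The log2 fold change of insulin over IGF-1, given here and below with its standard error, was -0.32 ± 0.051, adjusted p = 1.11e-04 in IRKO cells and -0.36 ± 0.052, adjusted p = 1.89e-05 in IRflox cells. IGF-1 raised Clcf1 over vehicle by 0.31 in IRKO and 0.31 in IRflox cells on the log2 scale. Insulin against vehicle gave -0.01 in IRKO cells (95% interval -0.11 to 0.10) and -0.05 in IRflox cells (-0.16 to 0.05) and was not called. Of the exon length of Clcf1, 8.17% is shared with a same-strand gene, AC109138.7, whose reads cannot be told apart there.

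Tm4sf1, a member of the transmembrane 4 L6 family found on endothelial and tumour cell surfaces, had the lowest p of the panel in this comparison. Its IRKO libraries held 127, 124, 127 and 129 CPM with insulin, 180.3, 181, 175 and 177 CPM with IGF-1 and 175, 147, 184 and 168 CPM with vehicle. Its IRflox libraries held 125, 127, 131 and 142 CPM with insulin, 173, 190.3, 179.5 and 181 CPM with IGF-1 and 128, 142, 174 and 144 CPM with vehicle. Insulin lay below IGF-1 without overlap in both genotypes, -0.49 ± 0.059, adjusted p = 4.35e-07 in IRKO cells and -0.46 ± 0.059, adjusted p = 2.68e-06 in IRflox cells. Against vehicle it was lower under insulin in both, -0.41 ± 0.059, adjusted p = 1.57e-07 in IRKO cells and -0.17 ± 0.059, adjusted p = 0.019 in IRflox cells. The IRflox value was lost without IRflox vehicle replicate 3 (adjusted p 0.238) and with the microglia covariate (0.871), and IRflox vehicle replicate 3 was the highest library of its group. The IRKO value with that covariate was -0.18 (adjusted p = 0.296), no longer called. IGF-1 raised it in IRflox cells (0.30 ± 0.058, adjusted p = 3.40e-05), while in IRKO cells its IGF-1 value was 0.08 with a 95% interval of -0.03 to 0.20, a value called higher with the microglia covariate.

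Tgm1 encodes a transglutaminase that cross-links proteins, best known from skin. Its level was low and its folds were the largest of the panel's rises. IRKO cells had 10.1, 12.1, 12.7 and 9.13 CPM with insulin, 17.3, 13.6, 15.1 and 13.5 CPM with IGF-1 and 7.12, 6.34, 6.98 and 7.25 CPM with vehicle. IRflox cells had 8.84, 9.49, 10.4 and 11.4 CPM with insulin, 13.6, 14.7, 14.0 and 15.9 CPM with IGF-1 and 5.28, 5.12, 6.58 and 5.25 CPM with vehicle. The 3 treatments did not overlap in either genotype, with insulin between IGF-1 and vehicle. Insulin against IGF-1 gave -0.44 ± 0.1, adjusted p = 0.00984 in IRKO cells and -0.53 ± 0.1, adjusted p = 0.00145 in IRflox cells. The IRKO call was lost without IRKO insulin replicate 1 or 4 or IRKO IGF-1 replicate 1 (adjusted p 0.0567 to 0.0892). Against vehicle, Tgm1 rose by 0.67 under insulin and 1.10 under IGF-1 in IRKO cells, and by 0.85 and 1.38 in IRflox cells. An antisense transcript, Gm49067, covers 5.76% of its exon length, and the libraries carry no strand information.

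Ptx3, a secreted pattern recognition protein of the pentraxin family, showed the same order at a much higher level. IRKO cells held 956, 1012, 865 and 947 CPM with insulin, 1260.3, 1209, 1260.0 and 1201 CPM with IGF-1 and 744, 610.0, 743 and 750.3 CPM with vehicle. IRflox cells held 1073, 1075, 1062 and 1151 CPM with insulin, 1128, 1460.2, 1169.8 and 1398 CPM with IGF-1 and 669, 733, 868 and 729 CPM with vehicle. The ligands did not overlap in IRKO cells and overlapped in IRflox cells. The log2 fold change of insulin over IGF-1 was -0.38 ± 0.065, adjusted p = 2.15e-04 in IRKO cells and -0.24 ± 0.065, adjusted p = 0.0308 in IRflox cells. The IRflox call was lost without IRflox insulin replicate 1, 2 or 3 or IRflox IGF-1 replicate 2 or 4 (adjusted p 0.0833 to 0.216) and with DESeq2 (0.0965) and with the microglia covariate (0.0589). Both ligands raised Ptx3 over vehicle in both genotypes, by 0.41 under insulin and 0.79 under IGF-1 in IRKO cells and by 0.54 and 0.78 in IRflox cells.

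S100a10, the partner of annexin A2 at the plasma membrane, had 62.4, 63.0, 65.8 and 61.6 CPM in IRKO insulin, 68.8, 73.8, 74.9 and 74.2 CPM in IRKO IGF-1 and 57.3, 52.1, 58.7 and 58.7 CPM in IRKO vehicle libraries. It had 60.0, 68.1, 64.6 and 73.0 CPM in IRflox insulin, 77.9, 83.7, 78.2 and 75.7 CPM in IRflox IGF-1 and 60.6, 62.6, 72.8 and 67.2 CPM in IRflox vehicle libraries. Insulin lay below IGF-1 without overlap in both genotypes, -0.21 ± 0.055, adjusted p = 0.0282 in IRKO cells and -0.25 ± 0.054, adjusted p = 0.00529 in IRflox cells. The IRKO call was lost without IRKO insulin replicate 1, 2 or 4 or IRKO IGF-1 replicate 2, 3 or 4 (adjusted p 0.0605 to 0.0803). IGF-1 raised S100a10 over vehicle in both genotypes, by 0.36 in IRKO and 0.26 in IRflox cells. The insulin value was 0.16 ± 0.055, adjusted p = 0.0182 in IRKO cells and 0.01 in IRflox cells, where it was not called. The IRKO insulin call was lost without IRKO insulin replicate 3 or IRKO vehicle replicate 2 (adjusted p 0.108 to 0.119).

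The chemokines Cxcl1 and Ccl2, which draw neutrophils and monocytes, were both lower under insulin than under IGF-1. Cxcl1 had 1307, 1295, 1218 and 1349 CPM in IRKO insulin, 1789.8, 1641, 1734 and 1644 CPM in IRKO IGF-1 and 1627, 1332, 1462 and 1527 CPM in IRKO vehicle libraries, and 1579.9, 1565, 1577 and 1839 CPM in IRflox insulin, 1857, 2237, 1639 and 2117 CPM in IRflox IGF-1 and 1313, 1524, 1811 and 1631 CPM in IRflox vehicle libraries. In IRKO cells the insulin libraries lay below all IGF-1 libraries (-0.40 ± 0.071, adjusted p = 4.12e-04), and in IRflox cells the groups overlapped (-0.26 ± 0.071, adjusted p = 0.034). The IRflox call was lost without IRflox insulin replicate 1, 2 or 3 or IRflox IGF-1 replicate 2 or 4 (adjusted p 0.109 to 0.228) and with DESeq2 (0.109) and with the microglia covariate (0.0614). Ccl2 had 1121, 1109.7, 1127 and 1203 CPM in IRKO insulin, 1375, 1249, 1335 and 1355 CPM in IRKO IGF-1 and 1130.1, 895, 982 and 1087 CPM in IRKO vehicle libraries, and 1120.3, 1086, 1095 and 1235 CPM in IRflox insulin, 1272, 1422, 1241 and 1360.3 CPM in IRflox IGF-1 and 894, 959, 1094 and 1012 CPM in IRflox vehicle libraries. Its insulin and IGF-1 libraries did not overlap in either genotype, with -0.22 ± 0.055, adjusted p = 0.0172 in IRKO cells and -0.22 ± 0.055, adjusted p = 0.0168 in IRflox cells. These calls were lost in IRKO cells without IRKO insulin replicate 1 or 2 or IRKO IGF-1 replicate 1 or 4 (adjusted p 0.0534 to 0.0688) and in IRflox cells without IRflox insulin replicate 2 or 3 or IRflox IGF-1 replicate 2 or 4 (adjusted p 0.0635 to 0.0963). IRflox IGF-1 replicates 2 and 4 were the highest 2 libraries of their group for Cxcl1, Ccl2 and Ptx3 alike.

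**Figure D3:**
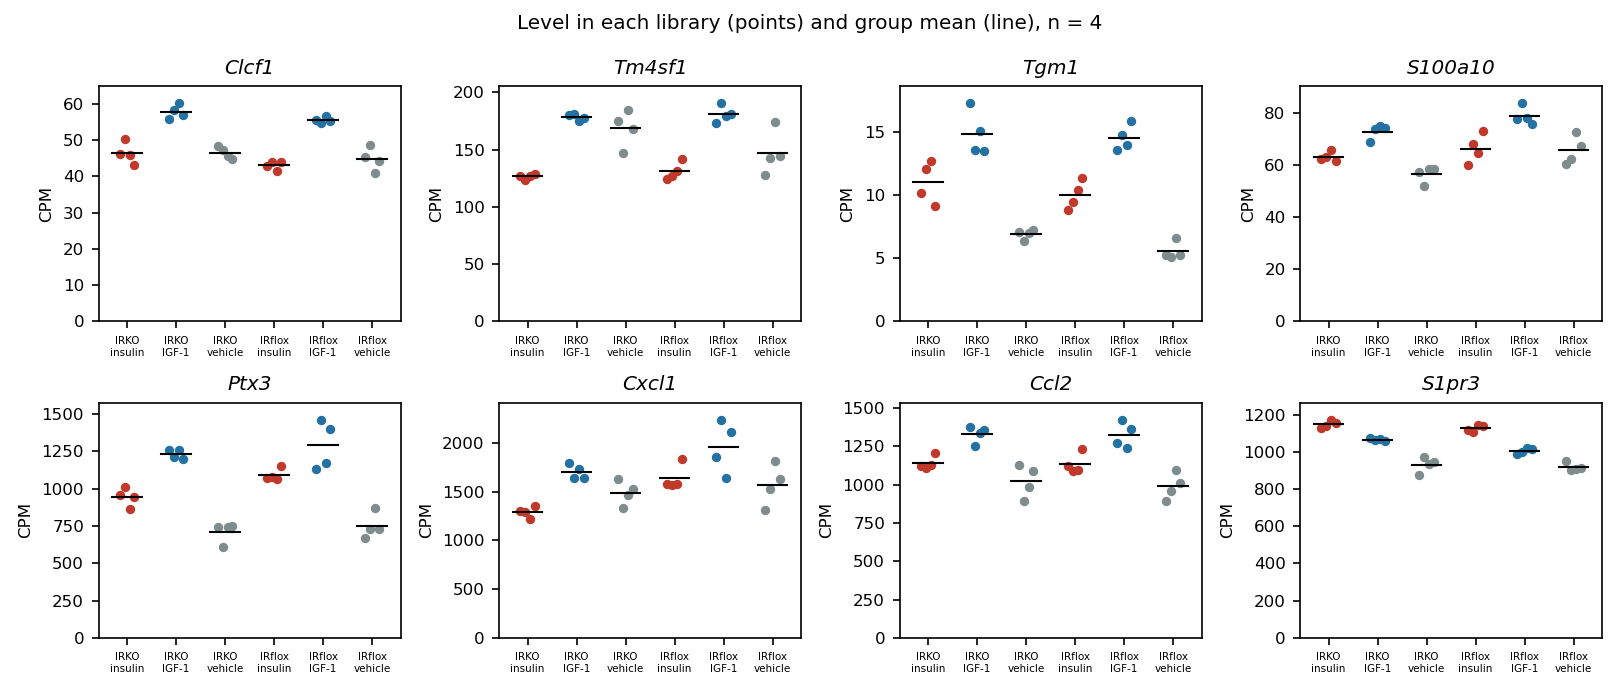
Level in CPM of the 7 genes that were lower under insulin than under IGF-1 in both genotypes and of S1pr3, in each of the 24 libraries (points) with the group mean (line); red is insulin, blue IGF-1 and grey vehicle. For Tgm1 the insulin libraries lie between IGF-1 and vehicle, for Ptx3 they do so in IRKO cells and overlap IGF-1 in IRflox cells, for Clcf1 they lie with vehicle, and for S1pr3 they lie above IGF-1.

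Promoter sequence is shown for the members among these 7 that have an entry in the RefSeq promoter table (GRCm38.p6), which are 4 of 7; 30 of the 36 panel members have one. Each sequence runs 5′ to 3′ on the gene's strand from 250 bases before to 50 after the annotated start, and for Tgm1 it is that of the start farther upstream. Capitals mark matches, on either strand, to the kappa-B motif of NF-kappa-B and to the AP-1 motif TGANTCA.
Tm4sf1 (chr3:57301939-57302238, minus strand): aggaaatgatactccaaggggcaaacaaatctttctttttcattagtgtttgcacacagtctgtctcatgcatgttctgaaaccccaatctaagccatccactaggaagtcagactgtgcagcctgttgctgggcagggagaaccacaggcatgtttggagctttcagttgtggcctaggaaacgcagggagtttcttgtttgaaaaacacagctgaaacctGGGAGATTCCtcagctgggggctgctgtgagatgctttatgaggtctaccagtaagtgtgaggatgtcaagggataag
Ptx3 (chr3:66219637-66219936, plus strand): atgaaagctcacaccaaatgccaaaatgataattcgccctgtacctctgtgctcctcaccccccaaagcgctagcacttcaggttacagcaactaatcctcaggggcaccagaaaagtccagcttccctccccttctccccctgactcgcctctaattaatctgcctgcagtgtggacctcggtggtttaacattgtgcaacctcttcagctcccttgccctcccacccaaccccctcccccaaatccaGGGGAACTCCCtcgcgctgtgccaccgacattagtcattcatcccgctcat
Tgm1 (chr14:55713443-55713742, minus strand): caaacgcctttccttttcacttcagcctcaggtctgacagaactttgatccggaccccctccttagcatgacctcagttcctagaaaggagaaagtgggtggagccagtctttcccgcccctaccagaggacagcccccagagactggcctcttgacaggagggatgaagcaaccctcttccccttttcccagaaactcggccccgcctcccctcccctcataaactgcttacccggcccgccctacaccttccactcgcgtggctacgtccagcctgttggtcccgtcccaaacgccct
Cxcl1 (chr5:90890995-90891294, plus strand): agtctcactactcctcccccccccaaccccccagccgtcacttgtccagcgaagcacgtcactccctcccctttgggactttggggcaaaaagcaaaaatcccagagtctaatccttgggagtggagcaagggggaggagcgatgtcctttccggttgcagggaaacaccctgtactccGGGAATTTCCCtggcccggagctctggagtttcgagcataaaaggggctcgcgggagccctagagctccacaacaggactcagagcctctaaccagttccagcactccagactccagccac
The kappa-B motif occurs in the Tm4sf1, Ptx3 and Cxcl1 windows, in the last 2 as a pair of overlapping matches, and in 4.51% of all 32851 promoters of this length in the table. The Tgm1 window holds neither motif and is printed in lower case throughout. The AP-1 motif, in 7.81% of all promoters, is in none of the 4 windows. These 4 genes are shown because they moved together between the ligands in both genotypes. The share of the panel's other promoters with either motif was not counted. Motifs of STAT and interferon factors were also planned and were not searched. A match is a description of the letters and not evidence of binding.

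S1pr3, a receptor for the lipid sphingosine-1-phosphate, moved the other way. Its IRKO libraries had 1128, 1139.8, 1171 and 1154 CPM with insulin, 1072, 1065, 1069 and 1058 CPM with IGF-1 and 874, 974, 935 and 943 CPM with vehicle. Its IRflox libraries had 1119, 1106, 1143 and 1141 CPM with insulin, 991, 1000.2, 1021 and 1016 CPM with IGF-1 and 949, 901, 906 and 913 CPM with vehicle. Insulin lay above IGF-1, and IGF-1 above vehicle, without overlap in both genotypes. The insulin to IGF-1 difference was called in IRflox cells (0.16 ± 0.033, adjusted p = 0.00219) and not in IRKO cells (0.11 ± 0.033, adjusted p = 0.0709). S1pr3 thus rose with both ligands, by 0.30 under insulin and 0.19 under IGF-1 in IRKO cells and by 0.30 and 0.13 in IRflox cells, with the larger rise under insulin.

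Gbp2, an interferon-induced GTPase of the A1 set, had 1652, 1651, 1699.6 and 1612 CPM in IRKO insulin, 1536, 1571, 1594 and 1568 CPM in IRKO IGF-1 and 2000.0, 1953, 1946 and 1934 CPM in IRKO vehicle libraries. It had 1649, 1694, 1719.5 and 1727 CPM in IRflox insulin, 1442, 1558, 1543 and 1521 CPM in IRflox IGF-1 and 1909, 1936, 2199.9 and 1950.3 CPM in IRflox vehicle libraries. Both ligands left it below vehicle and insulin left it above IGF-1, with no overlap between any of the 3 treatments in either genotype. The insulin to IGF-1 difference was 0.08 ± 0.037, adjusted p = 0.338 in IRKO cells, not called, and 0.16 ± 0.037, adjusted p = 0.0072 in IRflox cells. Gfap, the astrocyte filament gene, was at 735, 723, 742 and 701 CPM in IRKO insulin, 669.8, 668, 703 and 698 CPM in IRKO IGF-1 and 619.6, 729, 650.0 and 688 CPM in IRKO vehicle libraries. It was at 755, 753, 727 and 664 CPM in IRflox insulin, 618, 653, 699 and 632 CPM in IRflox IGF-1 and 700.1, 645, 679.9 and 626 CPM in IRflox vehicle libraries. These groups overlapped in both genotypes, and the difference between insulin and IGF-1 was 0.08 ± 0.045, adjusted p = 0.417 in IRKO cells and 0.16 ± 0.045, adjusted p = 0.0491 in IRflox cells. The IRflox call was lost without IRflox insulin replicate 1, 2 or 3 or IRflox IGF-1 replicate 1, 2 or 4 (adjusted p 0.102 to 0.182) and with the microglia covariate (0.0713).

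Ptgs2, the inducible cyclooxygenase, was higher under insulin than under IGF-1 in IRflox cells, with 225, 212, 241 and 233 CPM with insulin, 186, 208, 210.1 and 205 CPM with IGF-1 and 236, 213, 238 and 237 CPM with vehicle (0.17 ± 0.049, adjusted p = 0.0474 for insulin over IGF-1). Its IRKO libraries held 244, 244, 230.4 and 243 CPM with insulin, 232, 271, 219 and 222 CPM with IGF-1 and 264, 264, 255 and 261 CPM with vehicle, with overlap of the ligands (0.03 ± 0.049, adjusted p = 0.88). The IRflox call was lost without IRflox insulin replicate 1, 3 or 4 or IRflox IGF-1 replicate 1, 2, 3 or 4 (adjusted p 0.0569 to 0.201) and with a replicate block (0.0578). Cd44, the receptor for the matrix sugar hyaluronan, was lower under insulin than under IGF-1 in IRKO cells, with 895, 904, 882 and 901 CPM with insulin, 994, 1047, 992 and 950.0 CPM with IGF-1 and 873, 814, 853 and 836 CPM with vehicle (-0.15 ± 0.042, adjusted p = 0.0367). In IRflox cells it had 911, 907, 961 and 1025 CPM with insulin, 973, 1048, 982 and 1048 CPM with IGF-1 and 771, 809, 909 and 832 CPM with vehicle, and the ligands overlapped (-0.09 ± 0.042, adjusted p = 0.327). The IRKO call was lost without IRKO insulin replicate 1, 2, 3 or 4 or IRKO IGF-1 replicate 1, 2 or 3 (adjusted p 0.0563 to 0.155).

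Calls in 1 genotype and not in the other do not show that the genotypes differed. The difference between genotypes in insulin against IGF-1 was called for 0 of 35 members by edgeR and for 0 by DESeq2, against 0% of all genes tested with edgeR, and 2 members, Cxcl10 and Ptgs2, had an unadjusted p under 0.05. On the log2 scale this difference, IRKO minus IRflox, was -0.03 for Tm4sf1 (95% interval -0.20 to 0.14), 0.05 for Clcf1 (-0.10 to 0.19), -0.06 for S1pr3 (-0.15 to 0.04) and -0.15 for Ptgs2 (-0.29 to 0.00). For Cxcl1 and Ptx3, whose fold was larger in IRKO cells, it was -0.14 (-0.34 to 0.06) and -0.14 (-0.33 to 0.04). Averaged over the genotypes, 4 members that passed in neither genotype alone were called: Timp1, an inhibitor of matrix metalloproteinases (-0.20 ± 0.048, adjusted p = 0.00586), and B3gnt5, a glycolipid glycosyltransferase (-0.23 ± 0.067, adjusted p = 0.0227), were lower under insulin, and the metalloreductase Steap4 (0.09 ± 0.026, adjusted p = 0.0181) and the TGF-beta co-receptor Cd109 (0.11 ± 0.031, adjusted p = 0.016) were higher. The averaged calls were lost for Steap4 without IRKO insulin replicate 1 or 4 or IRKO IGF-1 replicate 3 or 4 or IRflox insulin replicate 3 or IRflox IGF-1 replicate 3 (adjusted p 0.0519 to 0.0793), for Cd109 without IRKO IGF-1 replicate 4 or IRflox IGF-1 replicate 2 (adjusted p 0.0621 to 0.0622) and for B3gnt5 without IRKO insulin replicate 3 or IRflox insulin replicate 2 or IRflox IGF-1 replicate 1 (adjusted p 0.0547 to 0.0698). None of the 17 microglia markers was called between the ligands in either genotype by edgeR or DESeq2, and 0 had an unadjusted p under 0.05 in either. With the microglia covariate all 8 IRKO calls held and Timp1 joined them, while in IRflox cells Gfap, Cxcl1 and Ptx3 were lost, 8 calls held and Steap4 joined them. Of 7 tested oligodendrocyte lineage markers, 1 was lower under insulin than under IGF-1 in IRKO cells, against 1.61% of all genes tested. In IRflox cells 2 were lower and 1 higher, against 1.1% and 1.49% of all genes tested. Olig2, a transcription factor of that lineage, averaged 101.5 CPM with insulin and 123 CPM with IGF-1 in IRKO cells (-0.27 ± 0.053, adjusted p = 0.00109), and 101 CPM and 121 CPM in IRflox cells (-0.25 ± 0.053, adjusted p = 0.00369). The part of these markers in the panel's differences was not tested.

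Against vehicle, both ligands moved most of the panel, and in both directions. In IRKO cells insulin raised 8 and lowered 17 of 35 members, and IGF-1 raised 10 and lowered 15. In IRflox cells insulin raised 9 and lowered 13, and IGF-1 raised 13 and lowered 16. The ligands also moved a large share of all genes. In IRKO cells 46.4% of all genes tested were called for insulin (24.7% higher, 21.7% lower) and 52% for IGF-1 (26.9% higher, 25.1% lower). In IRflox cells 45.7% were called for insulin (24.3% higher, 21.4% lower) and 50.8% for IGF-1 (26.4% higher, 24.4% lower). The panel's own shares of 71.4% in both IRKO comparisons and 62.9% and 82.9% in the IRflox ones are to be read against these. Ligand and vehicle libraries did not overlap for 23 members with insulin and 23 with IGF-1 in IRKO cells, against 38.8% and 44.9% of all genes tested, and for 15 and 24 in IRflox cells, against 38.1% and 43.3%. Both comparisons within a genotype share its 4 vehicle libraries. In both genotypes, both ligands raised 6 members (Lcn2, S1pr3, Timp1, Ccl2, Tgm1 and Ptx3) and lowered 12 (Vim, Serpina3n, Osmr, Aspg, H2-D1, H2-T23, Gbp2, Ggta1, Serping1, Cd109, Emp1 and Cd14). The A1 members mostly fell: under insulin 6 of 9 fell in IRKO cells, and 5 fell and 1 rose in IRflox cells, and under IGF-1 6 fell in each genotype and 1 rose in IRflox cells. The member that rose was Fkbp5.

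**Figure D4:**
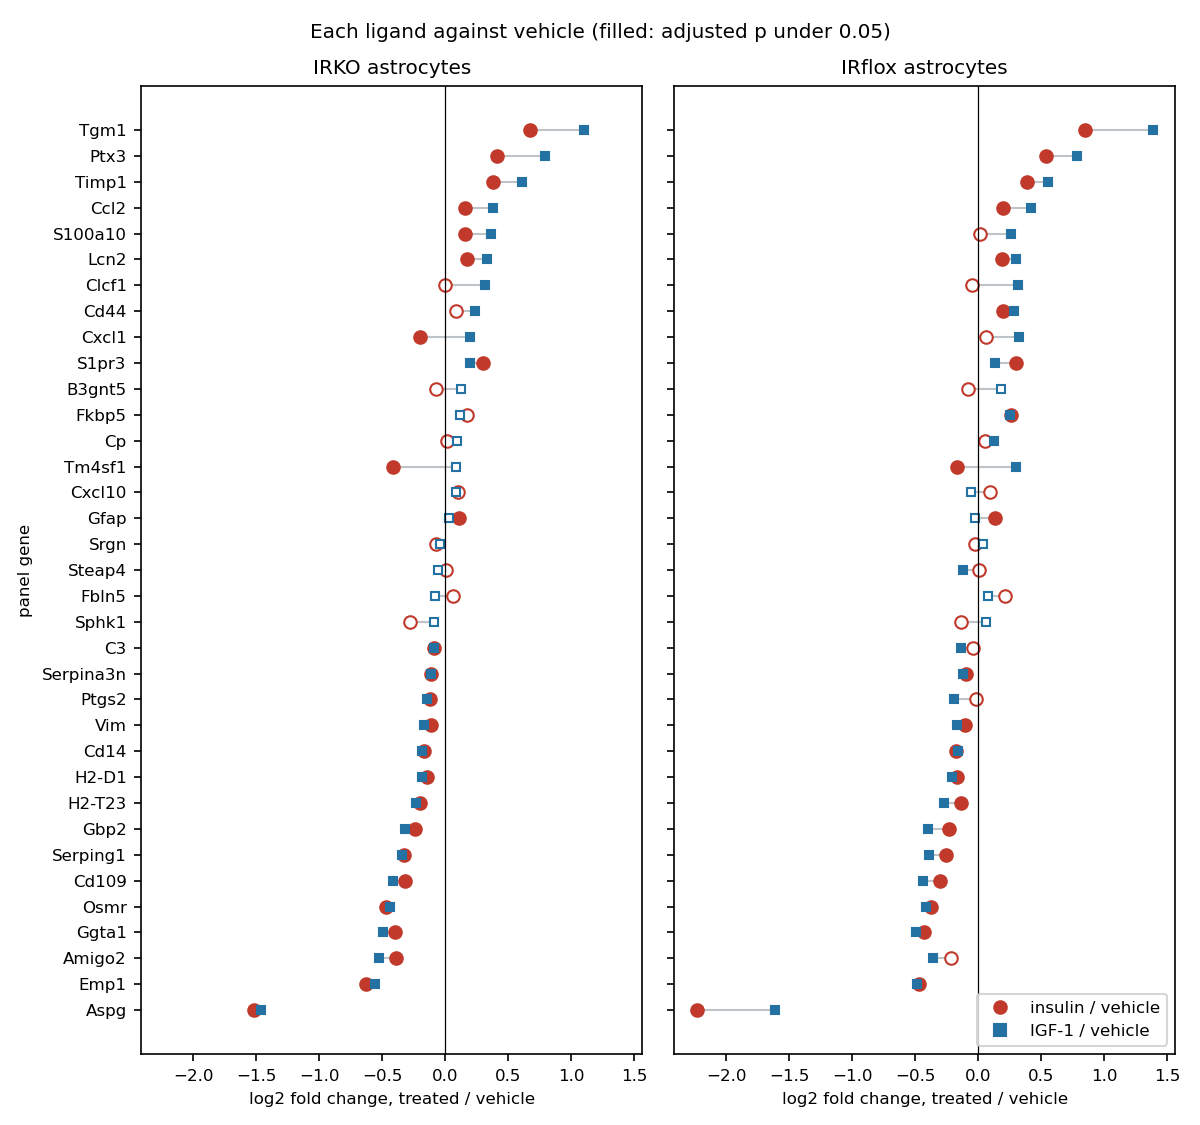
Log2 fold change over vehicle of insulin (red circles) and of IGF-1 (blue squares) for the 35 tested panel genes in IRKO cells (left) and IRflox cells (right), ordered by the IGF-1 value in IRKO cells; filled symbols have an adjusted p under 0.05. Tgm1, Ptx3 and Timp1 are highest under IGF-1, Aspg is lowest, and for Tm4sf1 the insulin symbol lies below 0 and the IGF-1 symbol above it in both genotypes.

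Among the secreted members that rose, Timp1 had 116, 122, 111 and 122 CPM in IRKO insulin, 138, 133, 133 and 147 CPM in IRKO IGF-1 and 96.5, 78.8, 93.4 and 93.7 CPM in IRKO vehicle libraries. It had 108, 104, 107 and 125 CPM in IRflox insulin, 119.8, 138, 119.8 and 122 CPM in IRflox IGF-1 and 68.5, 81.4, 99.4 and 90.5 CPM in IRflox vehicle libraries. Each ligand lay above vehicle without overlap in each genotype. The log2 fold change over vehicle in IRKO cells was 0.38 ± 0.069 under insulin and 0.61 ± 0.069 under IGF-1, and in IRflox cells 0.38 ± 0.07 and 0.56 ± 0.07. Lcn2, which binds bacterial iron carriers, rose less, by 0.17 under insulin and 0.33 under IGF-1 in IRKO cells and by 0.19 and 0.30 in IRflox cells. Its insulin calls were lost in IRKO cells without IRKO insulin replicate 3 or 4 or IRKO vehicle replicate 2 or 3 (adjusted p 0.0556 to 0.171) and with DESeq2 (0.127) and in IRflox cells without IRflox insulin replicate 3 or 4 or IRflox vehicle replicate 1 or 2 (adjusted p 0.0585 to 0.149) and with DESeq2 (0.088). Ccl2 rose by 0.16 under insulin and 0.38 under IGF-1 in IRKO cells and by 0.20 and 0.42 in IRflox cells, and its insulin call in IRKO cells was lost without IRKO insulin replicate 3 or 4 or IRKO vehicle replicate 2 or 3 (adjusted p 0.053 to 0.188) and with DESeq2 (0.0809).

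Relative to vehicle, Cxcl1 rose with IGF-1 and not with insulin. It was above vehicle with IGF-1 in both genotypes, 0.20 ± 0.071, adjusted p = 0.0192 in IRKO cells and 0.32 ± 0.071, adjusted p = 1.85e-04 in IRflox cells. Under insulin it was below vehicle in IRKO cells, -0.20 ± 0.071, adjusted p = 0.0174, and not called in IRflox cells, 0.06 (95% interval -0.08 to 0.21). The IRKO calls were lost for insulin without IRKO vehicle replicate 1 (adjusted p 0.0611) and with DESeq2 (0.0604) and with the microglia covariate (0.82) and for IGF-1 without IRKO IGF-1 replicate 1 or 3 or IRKO vehicle replicate 2 (adjusted p 0.0571 to 0.112) and with DESeq2 (0.0956). Cd44 rose under IGF-1 by 0.24 in IRKO and 0.29 in IRflox cells. Under insulin it had 0.09 in IRKO cells, not called, and rose by 0.20 in IRflox cells, and the difference between these responses was not called. Ptgs2 fell under IGF-1, with -0.15 in IRKO and -0.19 in IRflox cells, and under insulin in IRKO cells, with -0.12. Its IRKO calls were lost for insulin without IRKO insulin replicate 3 or IRKO vehicle replicate 2 (adjusted p 0.0714 to 0.0717) and with a replicate block (0.0506) and with the microglia covariate (0.322) and for IGF-1 without IRKO IGF-1 replicate 3 (adjusted p 0.0558) and with the microglia covariate (0.415). Ceruloplasmin (Cp), a copper-carrying ferroxidase, was raised by IGF-1 in IRflox cells (0.12 ± 0.041, adjusted p = 0.0129), a call lost without IRflox IGF-1 replicate 1 or IRflox vehicle replicate 1 or 2 (adjusted p 0.0669 to 0.0762). Fkbp5 was raised in IRflox cells, by 0.26 under insulin and 0.25 under IGF-1, and these calls were lost without IRflox insulin replicate 1 or 2 or IRflox vehicle replicate 2 or 4 (adjusted p 0.0526 to 0.132) and with the microglia covariate (0.0898) and with reads outside genes as a covariate (0.0765) for insulin and without IRflox IGF-1 replicate 2 or 4 or IRflox vehicle replicate 2 or 4 (adjusted p 0.065 to 0.0789) and with the microglia covariate (0.0688) and with reads outside genes as a covariate (0.0597) for IGF-1.

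Receptors and surface proteins were among the members that fell. Osmr, the receptor subunit for oncostatin M, had 499.6, 526, 509 and 534 CPM in IRKO insulin, 522, 534, 520.4 and 529 CPM in IRKO IGF-1 and 758, 734, 693 and 677 CPM in IRKO vehicle libraries. It had 483, 472, 539 and 532 CPM in IRflox insulin, 469.7, 492, 503 and 499 CPM in IRflox IGF-1 and 656, 666, 654 and 647 CPM in IRflox vehicle libraries. Every treated library lay below every vehicle library of its genotype. The log2 fold change was -0.47 ± 0.04 under insulin and -0.44 ± 0.04 under IGF-1 in IRKO cells, and -0.37 ± 0.04 and -0.42 ± 0.04 in IRflox cells. Cd109 had 81.8, 84.7, 83.1 and 84.7 CPM in IRKO insulin, 79.3, 81.4, 77.3 and 74.9 CPM in IRKO IGF-1 and 104, 106, 100.4 and 108 CPM in IRKO vehicle libraries, and 82.9, 88.1, 92.1 and 86.4 CPM in IRflox insulin, 79.7, 75.4, 83.5 and 81.1 CPM in IRflox IGF-1 and 113, 106, 111 and 102 CPM in IRflox vehicle libraries. It too fell without overlap under each ligand, with log2 fold changes of -0.32 for insulin and -0.42 for IGF-1 in IRKO cells and -0.31 and -0.44 in IRflox cells.

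Ggta1, the enzyme that adds terminal alpha-galactose to glycans in mouse, had 124, 122, 120.1 and 111 CPM in IRKO insulin, 109.6, 115, 109.9 and 113 CPM in IRKO IGF-1 and 157, 154, 158 and 160.4 CPM in IRKO vehicle libraries. It had 109, 108, 110.4 and 105 CPM in IRflox insulin, 98.8, 105, 101 and 107 CPM in IRflox IGF-1 and 151, 142, 143 and 145 CPM in IRflox vehicle libraries. Under each ligand it lay below vehicle without overlap, with -0.40 ± 0.038, adjusted p = 1.43e-11 for insulin and -0.49 ± 0.038, adjusted p = 2.58e-14 for IGF-1 in IRKO cells and -0.43 ± 0.039 and -0.50 ± 0.039 in IRflox cells. Serping1, the inhibitor of the C1 complement proteases, had 82.8, 80.1, 83.5 and 87.3 CPM in IRKO insulin, 84.3, 86.5, 77.7 and 81.6 CPM in IRKO IGF-1 and 103, 107, 109 and 100.0 CPM in IRKO vehicle libraries. It had 87.2, 78.6, 87.3 and 86.6 CPM in IRflox insulin, 79.0, 82.0, 76.5 and 71.1 CPM in IRflox IGF-1 and 95.6, 96.4, 114 and 99.3 CPM in IRflox vehicle libraries. It was also below vehicle without overlap in each comparison, with log2 fold changes of -0.33 ± 0.05 under insulin and -0.35 ± 0.05 under IGF-1 in IRKO cells and -0.26 ± 0.05 and -0.39 ± 0.051 in IRflox cells. Fitted with the microglia covariate, it had -0.11 (adjusted p = 0.462) with insulin and -0.12 (adjusted p = 0.396) with IGF-1 in IRKO cells, and -0.076 (adjusted p = 0.566) with insulin in IRflox cells.

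The major histocompatibility class I genes H2-D1 and H2-T23, which present peptides to lymphocytes, fell modestly. H2-T23 had 333, 309, 317 and 304 CPM in IRKO insulin, 321, 286, 319 and 306 CPM in IRKO IGF-1 and 346, 364, 362 and 379 CPM in IRKO vehicle libraries. It had 346, 356, 324 and 331 CPM in IRflox insulin, 289, 323, 313 and 309 CPM in IRflox IGF-1 and 357, 372, 403 and 359.9 CPM in IRflox vehicle libraries. Treated and vehicle libraries did not overlap, and the log2 fold change ran from -0.27 for IGF-1 to -0.14 for insulin, both in IRflox cells. The insulin call was lost without IRflox vehicle replicate 3 (adjusted p 0.0519) and with the microglia covariate (0.221). For H2-D1 the 4 values lay between -0.21 and -0.15. C3 itself was lower under both ligands in IRKO cells, -0.09 under insulin and -0.09 under IGF-1, and under IGF-1 in IRflox cells, -0.14; both IRKO calls were lost without IRKO vehicle replicate 2 (adjusted p 0.0782 for insulin and 0.091 for IGF-1). Amigo2, an adhesion protein, fell in 3 of the 4 comparisons and had -0.22 under insulin in IRflox cells, not called.

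Of the filament genes, Vim fell under both ligands, and Gfap was called slightly higher under insulin only. The log2 fold change of Vim was -0.11 under insulin and -0.17 under IGF-1 in IRKO cells and -0.11 and -0.17 in IRflox cells. Its insulin calls were lost in IRKO cells without IRKO insulin replicate 2 (adjusted p 0.0754) and with the microglia covariate (0.632) and in IRflox cells without IRflox vehicle replicate 3 (adjusted p 0.0699) and with the microglia covariate (0.5). Gfap was higher under insulin by 0.11 in IRKO and 0.13 in IRflox cells, and under IGF-1 it had 0.03 and -0.03, not called. The insulin calls of Gfap were lost in IRKO cells without IRKO insulin replicate 1, 2 or 3 or IRKO vehicle replicate 1, 3 or 4 (adjusted p 0.068 to 0.297) and with DESeq2 (0.0623), with library size scaling (0.0702), with a filter at 1 mean CPM (0.0628), with only the groups compared in the fit (0.06) and with the microglia covariate (0.718) and in IRflox cells without IRflox insulin replicate 1, 2 or 3 or IRflox vehicle replicate 2 or 4 (adjusted p 0.0517 to 0.14) and with the microglia covariate (0.48) and with reads outside genes as a covariate (0.0908). Serpina3n, a serine protease inhibitor often used as a marker of reactive astrocytes, fell slightly, with -0.12 under insulin and -0.11 under IGF-1 in IRKO cells and -0.10 and -0.12 in IRflox cells, and its insulin call in IRflox cells was lost without IRflox vehicle replicate 1, 3 or 4 (adjusted p 0.0518 to 0.111) and with the microglia covariate (0.496). Aspg, an asparaginase, gave the largest falls, between -2.23 and -1.46 on the log2 scale, on counts of 4 to 18 in treated and 18 to 53 in vehicle libraries.

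In 6 members neither ligand was called against vehicle in either genotype: Cxcl10, Fbln5, the proteoglycan Srgn, the sphingosine kinase Sphk1, B3gnt5 and the untested Slc10a6. Cxcl10 was not called in IRKO cells although its insulin libraries (1816.5 to 1894.7 CPM) lay narrowly above its vehicle libraries (1676.8 to 1816 CPM). For Sphk1, at 2.52 to 4.91 CPM, the 95% interval of insulin over vehicle was -0.65 to 0.09 in IRKO cells, so sizeable changes were not detectable at this depth. For Fbln5 it was -0.13 to 0.25 and for Srgn -0.22 to 0.07, also in IRKO cells. In IRflox cells Fbln5 averaged 14.8 CPM with insulin, 13.5 with IGF-1 and 12.8 with vehicle. The IRflox means of Srgn were 39.8, 41.4 and 40.4 CPM in the same order. Steap4 was lower with IGF-1 in IRflox cells (-0.12 ± 0.037, adjusted p = 0.00505) and had -0.06 in IRKO cells, not called. The difference between genotypes in the insulin response was called for 0 of 35 members, and likewise for 0 in the IGF-1 response, by edgeR and by DESeq2, against 0% of all genes tested with edgeR. At an unadjusted p under 0.05 there were 2 members for each, Cxcl1 and Tm4sf1 for insulin and Cxcl10 and Tm4sf1 for IGF-1. The Tm4sf1 difference, IRKO minus IRflox, was -0.25 ± 0.083 for insulin and -0.22 ± 0.082 for IGF-1.

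The microglia markers moved with treatment as well. In IRKO cells insulin lowered 14 of 17 and IGF-1 13, against 21.7% and 25.1% of all genes called lower. In IRflox cells insulin lowered 11 and IGF-1 8, against 21.4% and 24.4% of all genes, and none of the 17 was raised in any of these comparisons. Once the microglia covariate was in the fit, the members called were 12 for insulin and 15 for IGF-1 in IRKO cells, against 25 and 25 without it, and 12 for insulin and 20 for IGF-1 in IRflox cells, against 22 and 29. Over all genes the same fit called 3387 and 4090 in IRKO cells, against 7239 and 8114 without it, and 4251 and 5509 in IRflox cells, against 7131 and 7930. The sign turned for Serpina3n and Cd14 under both ligands in both genotypes, for Ptgs2 under both ligands, H2-D1 and Cxcl1 under insulin in IRKO cells, and for Tm4sf1 under insulin in IRflox cells, and none of these was called. Other calls were lost in that fit without a change of sign. In IRKO cells these were Amigo2, Aspg, C3, H2-T23, Serping1 and Vim under both ligands, Gbp2, Gfap and Tm4sf1 under insulin, and H2-D1 and Clcf1 under IGF-1. In IRflox cells they were Fkbp5, H2-D1 and Vim under both ligands, Gbp2, Gfap, H2-T23 and Serping1 under insulin, and Amigo2, C3, Ptgs2 and Steap4 under IGF-1. The part of microglia in these results was not tested.

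IRKO cells differed from IRflox cells of the same treatment in part of the panel. In IRKO against IRflox cells, 7 of 35 members (20%) were called with insulin (2 higher, 5 lower), against 10.5% of all genes tested (4.94% higher, 5.53% lower). With IGF-1 4 (11.4%) were called (2 higher, 2 lower), against 6.76% (3.62% higher, 3.15% lower). With vehicle 9 (25.7%) were called (5 higher, 4 lower), against 7.86% (3.76% higher, 4.1% lower). The libraries did not overlap for 8 members with insulin, 8 with IGF-1 and 7 with vehicle, against 15%, 13.2% and 11.3% of all genes tested. Under all 3 treatments and in the same direction, 3 members were called: Cd14, the co-receptor for bacterial lipopolysaccharide, was higher in IRKO cells, and Emp1 and Steap4 were lower. Each of these 3 comparisons has its own libraries. Under vehicle the count fell to 5 without IRKO vehicle replicate 1, IRKO vehicle replicate 2 or IRflox vehicle replicate 2. The microglia markers moved the same way as Cd14: of 17, 11 were higher in IRKO cells with insulin, 8 with IGF-1 and 15 with vehicle, and none was lower. Of all genes tested, 4.94%, 3.62% and 3.76% were called higher.

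Cd14 had 445, 440.1, 471 and 441 CPM in IRKO insulin, 444, 465, 427 and 438 CPM in IRKO IGF-1 and 518, 475, 525 and 499.6 CPM in IRKO vehicle libraries. It had 375, 365, 352 and 381 CPM in IRflox insulin, 353, 399.9, 376 and 362 CPM in IRflox IGF-1 and 413, 388, 447 and 414 CPM in IRflox vehicle libraries. IRKO libraries lay above IRflox libraries of the same treatment without overlap, with log2 differences of 0.29 ± 0.042, adjusted p = 6.71e-06 for insulin, 0.25 ± 0.042, adjusted p = 8.32e-05 for IGF-1 and 0.28 ± 0.042, adjusted p = 1.08e-05 for vehicle. Macrophages and microglia are known for high Cd14, and the median log2 difference of the 17 microglia markers was 0.21 with insulin, 0.18 with IGF-1 and 0.26 with vehicle. With the microglia covariate it was -0.023 with insulin, -0.0198 with IGF-1 and -0.081 with vehicle, not called. The part of microglia in it was not tested.

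Emp1, a small membrane protein of the peripheral myelin protein family, had 20.4, 19.8, 18.3 and 17.1 CPM in IRKO insulin, 20.3, 19.1, 18.5 and 21.6 CPM in IRKO IGF-1 and 26.6, 26.8, 32.1 and 31.5 CPM in IRKO vehicle libraries. It had 25.0, 27.8, 24.2 and 23.8 CPM in IRflox insulin, 25.0, 24.1, 25.9 and 25.1 CPM in IRflox IGF-1 and 31.7, 34.4, 38.2 and 35.4 CPM in IRflox vehicle libraries. IRKO cells were lower without overlap under each ligand, with -0.41 ± 0.077 for insulin and -0.33 ± 0.077 for IGF-1, and with overlap under vehicle (-0.26 ± 0.07, adjusted p = 0.015). The vehicle call was lost without IRKO vehicle replicate 1 or 2 or IRflox vehicle replicate 3 (adjusted p 0.0678 to 0.0839) and with the microglia covariate (0.854). With that covariate the ligand values were -0.30 (adjusted p = 0.423) for insulin and -0.23 (adjusted p = 0.519) for IGF-1. Both ligands lowered Emp1 in both genotypes, with log2 fold changes over vehicle of -0.63 for insulin and -0.56 for IGF-1 in IRKO cells and -0.47 and -0.48 in IRflox cells. Steap4, which reduces iron and copper, had 1554, 1508, 1470.1 and 1571 CPM in IRKO insulin, 1515, 1499, 1440.1 and 1399 CPM in IRKO IGF-1 and 1575, 1490.2, 1506 and 1520.0 CPM in IRKO vehicle libraries, and 1749.9, 1653, 1819 and 1769.6 CPM in IRflox insulin, 1641, 1599, 1565 and 1589 CPM in IRflox IGF-1 and 1746, 1621, 1808 and 1794 CPM in IRflox vehicle libraries. It was lower in IRKO cells without overlap in every treatment, with -0.20 ± 0.037, adjusted p = 3.40e-04 for insulin, -0.13 ± 0.037, adjusted p = 0.029 for IGF-1 and -0.19 ± 0.037, adjusted p = 4.12e-04 for vehicle. The IGF-1 call was lost without IRKO IGF-1 replicate 3 or 4 or IRflox IGF-1 replicate 1, 2 or 4 (adjusted p 0.0579 to 0.117) and with the microglia covariate (0.168). With that covariate the difference was -0.29 (adjusted p = 0.0592) for insulin and -0.30 (adjusted p = 0.155) for vehicle.

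Cxcl10, the interferon-induced chemokine for T cells, had 1845, 1816, 1895 and 1858 CPM in IRKO insulin, 1789, 1741, 1908 and 1880.0 CPM in IRKO IGF-1 and 1677, 1730.2, 1696 and 1816 CPM in IRKO vehicle libraries. It had 1997, 2171, 2136 and 2156 CPM in IRflox insulin, 1819.8, 2035, 1983 and 1812 CPM in IRflox IGF-1 and 1871, 1940.0, 2206 and 1929 CPM in IRflox vehicle libraries. IRKO cells were lower without overlap under insulin (-0.19 ± 0.044, adjusted p = 0.00267) and under vehicle (-0.20 ± 0.044, adjusted p = 0.00186), and under IGF-1 the groups overlapped (-0.06 ± 0.044, adjusted p = 0.461). The difference with the microglia covariate was -0.24 (adjusted p = 0.229) with insulin and -0.25 (adjusted p = 0.36) with vehicle. Of the exon length of Cxcl10, 5.91% is shared with the opposite-strand gene Art3, and the libraries carry no strand information. Ptgs2 was higher in IRKO cells under IGF-1 (0.22 ± 0.049, adjusted p = 0.00293) and under vehicle (0.18 ± 0.049, adjusted p = 0.0173), the vehicle call being lost without IRflox vehicle replicate 2 (adjusted p 0.0978) and with the microglia covariate (0.687) and the IGF-1 call with the microglia covariate, at -0.02 (adjusted p = 0.947). Cxcl1 and Ptx3 were lower in IRKO than in IRflox cells with insulin (-0.34 ± 0.071, adjusted p = 8.75e-04 for Cxcl1 and -0.21 ± 0.065, adjusted p = 0.0341 for Ptx3). The Ptx3 call was lost without IRKO insulin replicate 1, 3 or 4 or IRflox insulin replicate 3 or 4 (adjusted p 0.0509 to 0.117) and with DESeq2 (0.103), with the microglia covariate (0.12) and with reads outside genes as a covariate (0.13). S100a10 was lower in IRKO cells under vehicle (-0.22 ± 0.055, adjusted p = 0.00885), a call lost without IRKO vehicle replicate 2 or IRflox vehicle replicate 3 (adjusted p 0.0542 to 0.0777) and with the microglia covariate (0.144). Ggta1 was higher in IRKO cells under insulin (0.15 ± 0.039, adjusted p = 0.00979), lost without IRKO insulin replicate 1 (adjusted p 0.065) and with the microglia covariate (0.567). Under vehicle, Osmr (0.13 ± 0.039), Ggta1 (0.12 ± 0.038) and Tm4sf1 (0.19 ± 0.058) were also called higher in IRKO cells; these calls were lost for Osmr without IRKO vehicle replicate 1 or 2 or IRflox vehicle replicate 1, 2, 3 or 4 (adjusted p 0.0562 to 0.183) and with a filter at 1 mean CPM (0.0582), with only the groups compared in the fit (0.0847) and with the microglia covariate (0.81), for Ggta1 without IRKO vehicle replicate 1, 2, 3 or 4 or IRflox vehicle replicate 2, 3 or 4 (adjusted p 0.0559 to 0.128) and with no low-count filter (0.0877), with a filter at 1 mean CPM (0.0591), with a replicate block (0.0581), with only the groups compared in the fit (0.0973) and with the microglia covariate (0.804) and for Tm4sf1 without IRKO vehicle replicate 1 or 3 or IRflox vehicle replicate 1, 2 or 4 (adjusted p 0.0758 to 0.198) and with only the groups compared in the fit (0.083) and with the microglia covariate (0.84).

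**Figure D5:**
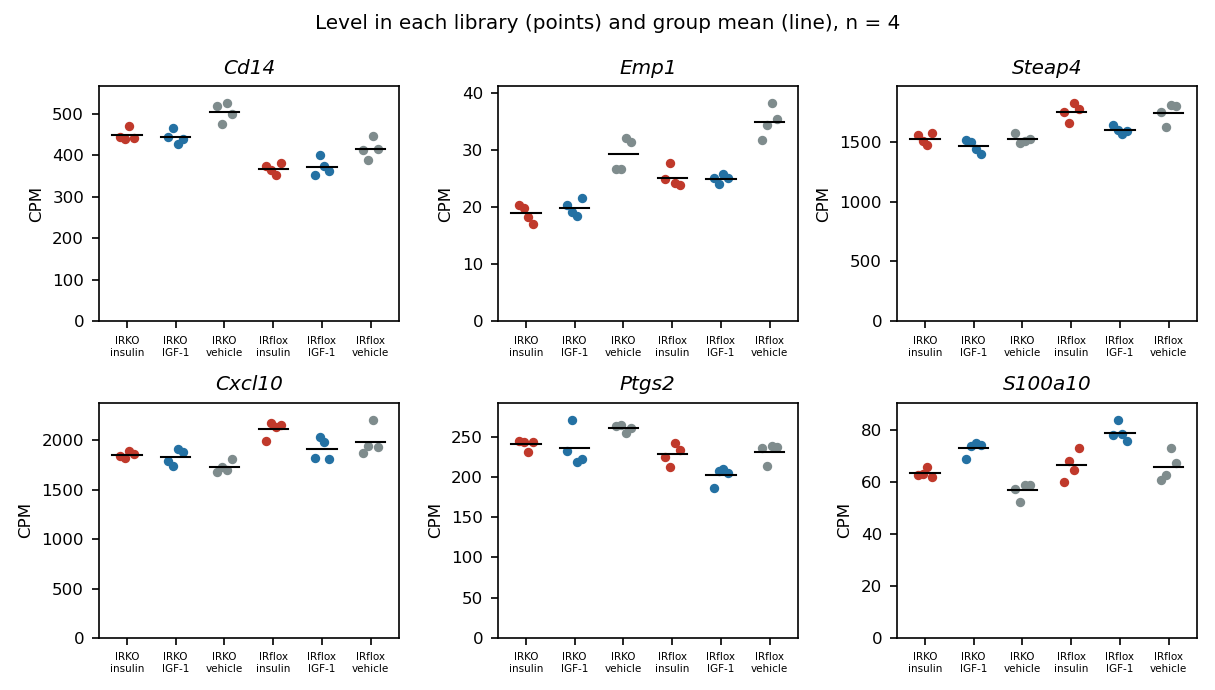
Level in CPM of 6 panel genes in each of the 24 libraries (points) with the group mean (line), IRKO groups left of IRflox groups; red is insulin, blue IGF-1 and grey vehicle. Cd14 lies higher and Steap4 lower in IRKO cells under every treatment without overlap, and Emp1 is lower in IRKO cells with overlap under vehicle alone.

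Genes outside the panel were read from lists, and their part in the panel's differences was not tested. The counts for insulin against IGF-1 are to be read against the shares of all genes tested. In IRKO cells 1.61% of all genes were called lower and 1.06% higher, and in IRflox cells 1.1% and 1.49%. Growth factor and early response genes, many of them targets of the RAS-MAPK pathway, formed a list of 27, of which 11 were lower and 1 higher under insulin than under IGF-1 in each genotype. The 4 with the lowest p were the MAPK feedback inhibitors Spred3 (-0.28 in IRKO and -0.39 in IRflox cells) and Dusp6 (-0.43 and -0.42) and the EGF receptor ligands Ereg (-0.88 and -0.83) and Hbegf (-0.39 and -0.34), each called lower under insulin in both genotypes. Of 26 NF-kappa-B targets and feedback genes, 2 were lower in IRKO cells, the chemokines Ccl20 (-0.63 ± 0.13, adjusted p = 0.00285) and Ccl7 (-0.29 ± 0.072, adjusted p = 0.0164), and 1 was higher in IRflox cells, the inhibitor Nfkbie (0.16 ± 0.043, adjusted p = 0.0319). Of 25 genes of gp130 and STAT3 signalling, the route used by Clcf1 and Osmr, 1 was higher under insulin in each genotype, in IRKO cells the kinase gene Tyk2 (0.16 ± 0.043, adjusted p = 0.0347).

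Interferon and antigen presentation genes were called between the ligands in IRflox cells, and the difference between genotypes in this comparison was not called. Under insulin against IGF-1, 0 of 26 were called in IRKO cells by edgeR and 0 by DESeq2, with 4 at an unadjusted p under 0.05, and 11 were higher in IRflox cells by edgeR and 14 by DESeq2, against 1.49% of all genes called higher there by edgeR. Among the lowest p was the GTPase Igtp, at 0.11 ± 0.045, adjusted p = 0.239 in IRKO cells and 0.23 ± 0.045, adjusted p = 0.00102 in IRflox cells. In insulin against IGF-1, the difference between genotypes was called for 0 of 26 by either tool. At an unadjusted p under 0.05 there were 9, against 690 of all 15599 genes. For Igtp the difference was -0.13 (95% interval -0.25 to 0.00). In the response to IGF-1 against vehicle, DESeq2 called the difference for 1 gene of this list, higher in IRKO cells, and edgeR for 0. Of 15 tested complement genes and of 15 tested glucocorticoid targets, 0 were called between the ligands in either genotype by edgeR or DESeq2; at an unadjusted p under 0.05 there were 1 complement gene in IRKO and 5 in IRflox cells, and 1 and 2 glucocorticoid targets. Of 29 tested ligands, receptors and enzymes that pair with members, 1 was lower in IRKO cells, the hyaluronan synthase Has2, whose product binds Cd44 (-0.26 ± 0.063, adjusted p = 0.0127), and 1 was higher in IRflox cells. Of 4 other published reactive genes, Iigp1, an interferon-induced GTPase, was higher under insulin in IRflox cells (0.18 ± 0.047, adjusted p = 0.0231) and had 0.00 ± 0.047, adjusted p = 1 in IRKO cells. Astrocyte markers were higher under insulin for 2 of 16 in IRKO cells and 3 of 16 in IRflox cells, the water channel gene Aqp4 and the transcription factor gene Sox9 in both.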

How the data were processed

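RNA was measured in 24 libraries, 4 per group, read as pairs from poly-A RNA without strand information, per the labels' protocols. What the authors deposited are unnormalized counts, as whole numbers of reads for each gene. Per the submitters' processing notes, STAR 2.7.7a, edgeR, DESeq2, R 4.0.4 and mm10 were used, in roles not stated. Which program counted the reads, and on which annotation, is not given in the sources used here. Closing lines of each file that name no gene were left out; 14.48 to 23.18% of reads lay outside genes.

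The analysis used R 4.3.3 and edgeR 4.0.16: expression filter with minimum count 10 and minimum total 15 (15599 genes kept), TMM scaling, and a quasi-likelihood fit with 1 mean per group over all 24 libraries, Benjamini-Hochberg adjusted within each of 13 comparisons. CPM were computed from the counts with TMM sizes; errors are SE and intervals are 95%. The common biological coefficient of variation was 4.9%. Replicates differed by more than sampling noise (chi-square per gene 2.17 to 6.88), and same-numbered replicates were not treated as paired. Exon lengths came from GENCODE M21 (GRCm38) and promoters from RefSeq (GRCm38.p6).

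The panel, its division and the other lists were chosen with earlier results of these data known. All 36 members were read; those called between insulin and IGF-1, or among the 8 lowest p of another comparison, are given by library, and up to 4 genes of each other list are named by p in insulin against IGF-1 averaged over genotypes. Alternatives were DESeq2 1.42.0, no TMM, other low-count filters, a replicate block, only the groups compared, leaving out each library, and covariates added after seeing the data. The fit was also run on simulated counts with the same spread for every gene, for insulin against IGF-1 in IRflox cells alone. That run cannot show how the fit behaves for genes with more spread or in the other comparisons.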

Additional observations from a re-analysis of the deposited data

Results flagged for a closer look

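In 14 of 216 member-by-group sets of 4 libraries, the highest or lowest library stood apart from the rest by more than Dixon's 95% criterion; chance flags about 1 in 20, or 10.8 sets here. In IRKO insulin cells these were Ptgs2 in replicate 3 (230.4 CPM against 242.7 to 244.2) and Cd14 in replicate 3 (470.8 CPM against 440.1 to 445.1). In IRKO IGF-1 cells it was Amigo2 in replicate 4 (8.016 CPM against 6.429 to 6.673). In IRKO vehicle cells they were Cp in replicate 1 (2148 CPM against 1972 to 1996) and Ptx3 in replicate 2 (610.0 CPM against 743.2 to 750.3). In IRflox insulin cells they were Cxcl1 in replicate 4 (1839 CPM against 1565 to 1580), Ptx3 in replicate 4 (1151 CPM against 1062 to 1075), Serping1 in replicate 2 (78.6 CPM against 86.6 to 87.3) and Amigo2 in replicate 2 (10.2 CPM against 8.23 to 8.37). In IRflox IGF-1 cells they were Timp1 in replicate 2 (138.5 CPM against 119.8 to 121.7) and Amigo2 in replicate 1 (6.28 CPM against 8.34 to 8.68). In IRflox vehicle cells they were Gbp2 in replicate 3 (2200 CPM against 1909 to 1950), Tgm1 in replicate 3 (6.58 CPM against 5.12 to 5.28) and Ptgs2 in replicate 2 (213 CPM against 235.6 to 238.1).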

How the results depend on the processing

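Of insulin against IGF-1, the calls of Tm4sf1 and Clcf1 in both genotypes, of Cxcl1 and Ptx3 in IRKO cells and of Tgm1, S100a10, S1pr3 and Gbp2 in IRflox cells held under all 16 alternatives run. Leaving out 1 library at a time gave 4 to 7 members called for insulin against IGF-1 in IRKO cells, 6 to 10 in IRflox cells and 13 to 17 averaged; 20 to 24 for insulin and 23 to 26 for IGF-1 against vehicle in IRKO cells, 19 to 21 and 27 to 29 in IRflox cells; 5 to 8 for IRKO against IRflox cells under insulin, 3 to 5 under IGF-1 and 5 to 8 under vehicle; and 0 for the differences between genotypes. Over all genes, insulin against IGF-1 had 267 calls without IRKO insulin replicate 1 and 277 without IRKO insulin replicate 3, against 417 with every library, and 250 without IRflox IGF-1 replicate 4 and 247 without IRflox insulin replicate 2, against 404. Without the low-count filter, 2 members were called for the difference in insulin response, and 16 to 19 genes for each difference between genotypes; DESeq2 called 2 genes for 2 of these differences, and 4 genes were called for the insulin response without IRKO vehicle replicate 1. With only the groups compared in the fit, 8 members were called for IRKO against IRflox cells under IGF-1. The split of higher and lower under insulin was 6 and 5 with DESeq2 in IRflox cells, 1 and 8 in IRKO cells with DESeq2 or with library size only, and 9 and 10 averaged with library size only. The cause of these shifts was not tested.

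With the microglia covariate, members called were 12 for insulin and 15 for IGF-1 against vehicle in IRKO cells, 12 for insulin in IRflox cells, and for IRKO against IRflox cells 2 under insulin, 0 under IGF-1 and 0 under vehicle; over all genes these came to 3387, 4090, 4251, 200, 120 and 33, against 7239, 8114, 7131, 1634, 1055 and 1226 without it. Signs turned, without a call, against vehicle in IRKO cells for Cd14 (0.12 insulin, 0.11 IGF-1), Serpina3n (0.086, 0.095), Ptgs2 (0.13, 0.11), Cxcl1 (0.059 insulin) and H2-D1 (0.018 insulin), and in IRflox cells for Cd14 (0.063, 0.048), Serpina3n (0.065, 0.021) and Tm4sf1 (0.029 insulin). They turned for IRKO against IRflox cells in Cd14 (-0.023 insulin, -0.0198 IGF-1, -0.081 vehicle), Ptgs2 (-0.0199 IGF-1, -0.14 vehicle) and Tm4sf1 (-0.10 vehicle). The percent of reads outside genes as a covariate moved no count past 1.5 times. The replicate numbers do not pair the libraries: none of 60 same-numbered pairs correlated above 0.1 (-0.116 to 0.099), against 7 of 180 others. The replicate block gave 8 members for insulin against IGF-1 in IRKO cells, 11 in IRflox cells and 16 averaged, 25 for each ligand against vehicle in IRKO cells, 22 for insulin and 29 for IGF-1 in IRflox cells, and 7, 4 and 8 for IRKO against IRflox cells under insulin, IGF-1 and vehicle; Ptgs2 between the ligands in IRflox cells had an adjusted p of 0.0578 under it. Depth limits Slc10a6, Aspg and Sphk1.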
